A study of Mus musculus with 52 samples.

Results

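GFP-negative cells sorted from the cerebellum are the parenchyma that surrounds its capillaries, with neurons, glia and microglia. The comparison held 4 libraries, 2 from mice in which beta-catenin was stabilized in endothelial cells (ECs) and 2 from WT mice, out of 52 samples in the series, and they were taken by their labelled tissue, sort gate and genotype. All were labelled as adult males that carry Tie2-GFP, a transgene that marks ECs and so lets them be removed by FACS. The WT mice carried Tie2-GFP only. The stabilized mice carried Tie2-GFP, Pdgfb-CreER and BcatEx3fl: 4-hydroxytamoxifen (4HT) activates CreER in ECs and the exon that marks beta-catenin for destruction is removed. The groups therefore differ in the Cre transgene and the floxed allele as well as in the stabilized protein, and whether WT mice received 4HT is not given in the sources used here. The effects of these cannot be told apart. Pdgfb-CreER acts in ECs, so that the GFP-negative cells are not the cells in which the allele was designed to recombine. The study describes its replicates as biological, and the number of mice behind a cerebellum replicate is not given in the sources used here. The labels themselves do not name the animals. The p-values for GFP-negative cells come, unless stated otherwise, from a fit of 12 GFP-negative libraries, 8 of them from the pituitary. They measure only the spread between the samples fitted.

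Beta-catenin carries the canonical Wnt signal from the Frizzled receptors to the TCF/LEF factors in the nucleus. In the cerebellum, Wnt7a, Wnt7b and Norrin made by neural cells reach capillary ECs and hold them in the blood-brain barrier state. The comparison described here asks the converse question, how the cells outside the vessel differ when the pathway is held active inside it.

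The deposited files held 33096724 and 35930249 estimated counts for the WT libraries and 19593463 and 12157485 for the stabilized libraries. When the libraries were thinned to one depth, 16078 and 18681 genes had a count in the WT and 14979 and 14365 in the stabilized libraries. Transcripts of the mitochondrial genome took 28.05% and 51.8% of the TPM, a transcript abundance scaled for length and depth, in WT and 43.4% and 54.5% in stabilized libraries. The replicates were no more alike than the groups in the stabilized mice: across 19612 genes the correlation of log2 levels was 0.88 between the WT replicates, 0.83 between the stabilized replicates and 0.81 to 0.85 between libraries of different genotype, a description in which all libraries share one protocol and genes are not independent.

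The labelled cell type was met by the markers. Transcripts of astrocytes and Bergmann glia (Slc1a3, Gja1, Aldoc), oligodendrocytes (Mbp, Mog), granule neurons (Snap25, Gabra6) and microglia (Ctss, P2ry12) were all present. In the 4 GFP-negative libraries the summed level of 15 astrocyte markers was 10521 and 2939 TPM in WT and 4212 and 1211 TPM in stabilized, against 28.1 to 208 TPM in the 4 GFP-positive libraries. The cells of a type and the RNA per cell cannot be told apart in such bulk libraries.

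Ctnnb1, which encodes beta-catenin (GRCm38, chr9:120929216-120960507, plus strand), was at 89.3 and 139 TPM in WT and 86.5 and 101 TPM in stabilized GFP-negative cells. The groups overlapped, and the log2 fold change was −0.10 ± 0.38 (SE, n = 2 per group; edgeR adjusted p = 0.99). In GFP-positive cells the same gene was at 928 and 1664 TPM in WT and 1122 and 1006 TPM in stabilized. A gene-level total does not resolve the loss of exon 3, so these values check neither the recombination nor its absence in the parenchyma.

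The direct readout of the pathway is its own feedback genes. Axin2, a scaffold of the complex that degrades beta-catenin, was at 19.6 and 2.89 TPM in WT and 2.64 and 2.04 TPM in stabilized GFP-negative cells (log2 fold change −1.17 ± 0.67, edgeR adjusted p = 0.54). In GFP-positive cells it was at 30.2 and 41.5 TPM in WT and 73.9 and 113 TPM in stabilized. Nkd1, which damps signaling at Dishevelled, was at 4.19 and 4.16 TPM against 1.65 and 1.38 TPM in GFP-negative cells and at 27.5 and 23.2 against 196 and 174 TPM in GFP-positive cells. In TPM both genes were higher in both stabilized EC libraries than in both WT EC libraries, without a call (edgeR adjusted p = 0.58 for Axin2 and 0.055 for Nkd1), and in the parenchyma they were lower in both stabilized libraries than in both WT libraries. Of the 14 Wnt targets none was called in ECs, where the median log2 fold change was 0.07. Of 14 Wnt target genes tested in GFP-negative cells none was called in either direction, 6 had both stabilized libraries below both WT libraries, beside 28.6% of all genes, and 1, the stem cell receptor Lgr5, had both above, beside 6.11%. Their median log2 fold change of −0.17 lay beside −0.26 for all 19612 genes and turned to 0.02 with an offset for gene length.

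Residual EC RNA was low in all 4 libraries. Each of 18 EC markers was expressed as a percentage of its mean TPM in the GFP-positive libraries of the same genotype, and the median over markers was 0.528% and 0.693% in the WT and 0.620% and 0.0664% in the stabilized libraries (mean 0.611% ± 0.117 and 0.343% ± 0.392, SD, n = 2 each). Taken over the summed TPM of the markers instead, the WT shares came to 0.591% and 0.733% and the stabilized shares to 1.05% and 0.206%, with means of 0.662% and 0.627%. Pecam1, an adhesion molecule of EC junctions, was at 1.42 and 1.499 TPM in WT and 0.406 and 0.171 TPM in stabilized, against 184 to 338 TPM in ECs. Cldn5, the main tight junction claudin of brain ECs, had 0 counts in WT replicate 1 and stabilized replicate 2 and stood at 1.88 TPM in WT replicate 2 and 5.28 TPM in stabilized replicate 1. The genotypes overlapped in the medians, and none of the 18 markers was called. Stabilized replicate 2 had the lowest share, with 3 markers at 0 counts.

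**Figure D1:**
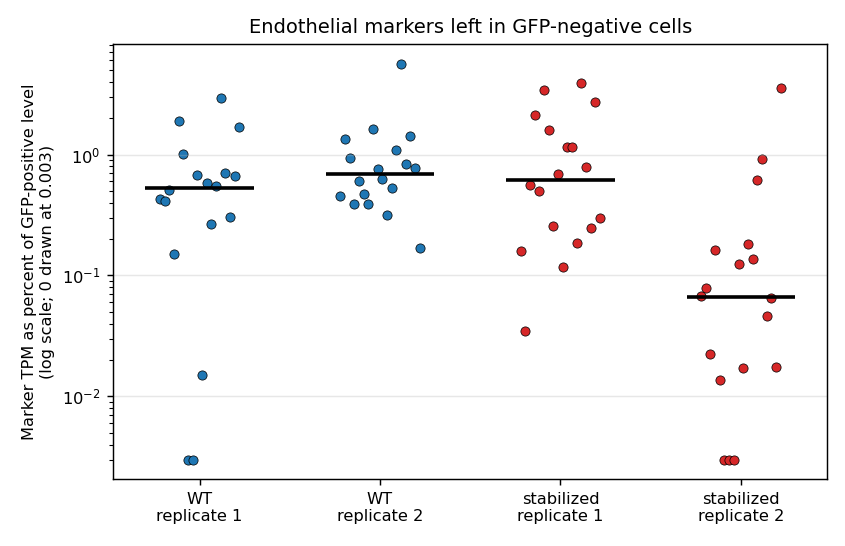
Each point is one of 18 EC markers, placed by its TPM in a GFP-negative library as a percentage (log scale) of its mean TPM in GFP-positive cells of the same genotype, and bars are medians over markers. The medians are 0.528%, 0.693%, 0.620% and 0.0664% from left to right, and no marker exceeds 5.63%.

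The residual share could be set directly against the genes that changed. Multiplying a gene's level in ECs by the residual share of each library gave a median of 0.0115% of the stabilized level for the genes called higher, and at most 1.52% for any of them. For the genes called lower it gave a median of 0.424% of the WT level and exceeded 10% for 2 genes, Slc12a7, a potassium-chloride cotransporter (24.4%), and Hspa1a, an inducible heat shock chaperone (15.9%). The share used was the median over markers of each library, whereas single markers reached 5.63% in WT replicate 2. Of the 123 genes called lower 65 were higher in GFP-positive than in GFP-negative cells, and of the 26 called higher 2 were.

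Over all genes, 26 were called higher and 123 lower in stabilized than in WT GFP-negative cells, at an edgeR adjusted p under 0.05 and a change of at least 2-fold, that is 0.133% and 0.627% of the 19612 tested and 0.76% together. At an unadjusted p under 0.05 there were 2137 genes, 557 higher and 1580 lower. The 26 genes had a median of 12.1 TPM in WT and 38.1 TPM in stabilized cells, and the 123 genes a median of 3.48 TPM in WT and 0.0175 TPM in stabilized cells. In 47 of the 123 both stabilized libraries had 0 counts, and those libraries were the shallower ones. Thinning all libraries to 12126898 counts left 29 higher and 112 lower genes, 25 and 110 of them shared with the unthinned calls, whereas a requirement of a count in all 4 libraries left 24 and 33. The counts depended on which libraries were fitted together. A fit of the 4 cerebellum libraries alone called none (1629 at an unadjusted p under 0.05), a fit of the 8 sorted cerebellum libraries called 7 lower genes, and DESeq2 on the 12 libraries called 330 higher and 924 lower. Each library moved the counts when left out. Without stabilized replicate 1 there were 104 higher and 504 lower genes, which shared 26 and 94 with the calls above, and without stabilized replicate 2 there were 19 and 182, which shared 14 and 88. Without WT replicate 1 the counts were 24 and 225, and without WT replicate 2 they were 66 and 140. Of the 41 named calls 14 were lost without stabilized replicate 2 (Aldh1a2, Cdkn1c, Cyp51, Egr1, Etv1, Fgf1, Kcnc1, Kcnd2, Mycn, Nme5, Ppp1r17, Scn2a, Snap25 and Syt1), 8 without WT replicate 2, 6 without WT replicate 1 and 3 without stabilized replicate 1. With an offset for gene length 25 of the 41 were lost.

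**Figure D2:**
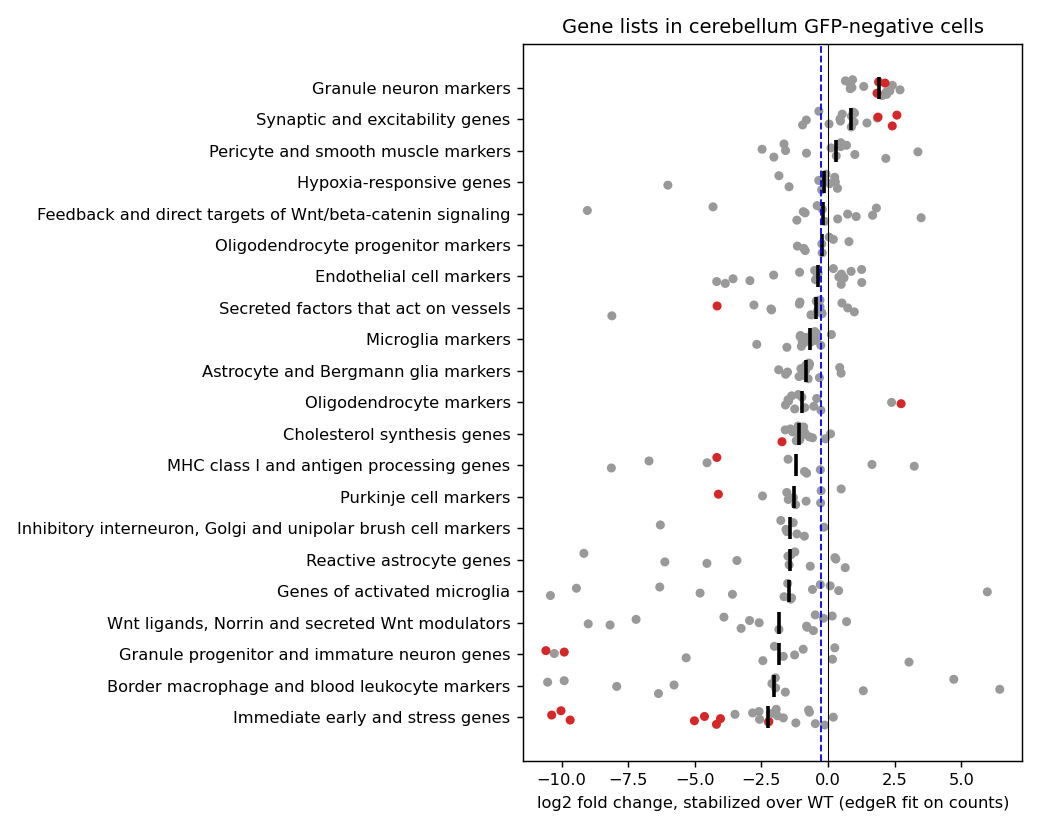
Each point is one tested gene of a list, placed by its log2 fold change between stabilized and WT GFP-negative cells, red where called by edgeR and grey where not. Black bars are list medians and the dashed line is the median of all genes, −0.26. Granule neuron and synaptic genes have the highest medians (1.90 and 0.88) and immediate early genes the lowest of those drawn (−2.24).

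The genes called higher included neuronal and myelin genes. Snap25, a SNARE protein of synaptic vesicle fusion (chr2:136713453-136782428), was at 226 and 192 TPM in WT and at 616 and 581 TPM in stabilized cells. Both stabilized libraries lay above both WT libraries, with a log2 fold change of 2.14 ± 0.37 (edgeR adjusted p = 0.021). Syt1, the calcium sensor of that fusion, went from 30.2 and 20.7 TPM to 70.5 and 73.0 TPM (log2 fold change 1.90 ± 0.33, adjusted p = 0.022). Etv1, a transcription factor of maturing granule neurons, went from 68.0 and 54.9 to 93.1 and 135 TPM (1.84 ± 0.36, adjusted p = 0.038).

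The granule neuron, the most abundant neuron of the brain, was represented by a list of 15 genes, of which these 3 were called, beside 0.133% of all genes, and none fell. Snap25 and Syt1 are expressed by neurons in general, so that Etv1 is the called member linked to granule neurons. All 15 had a log2 fold change above 0, and in 12 of the 15 both stabilized libraries were above both WT libraries in TPM, beside 6.11% of all genes. Their median log2 fold change was 1.90 beside −0.26 for all genes, and between 1.90 and 2.05 under the other scalings and fits of the same libraries. Neurod1, the differentiation factor of granule cells, was at 19.0 and 10.8 TPM in WT and 54.0 and 62.5 TPM in stabilized cells (log2 fold change 2.70, adjusted p = 0.10). Gabra6, the GABA receptor subunit that marks mature granule neurons, was at 51.3 and 15.0 against 88.0 and 84.998 TPM (2.32, adjusted p = 0.096). Reln, the secreted glycoprotein that positions Purkinje cells, was at 38.9 and 25.4 against 167 and 179 TPM (2.41, adjusted p = 0.16). None of these 3 passed the test, although the libraries of the genotypes did not overlap. Zic1, Pax6 and the vesicular glutamate transporter gene Slc17a7 overlapped between genotypes.

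**Figure D3:**
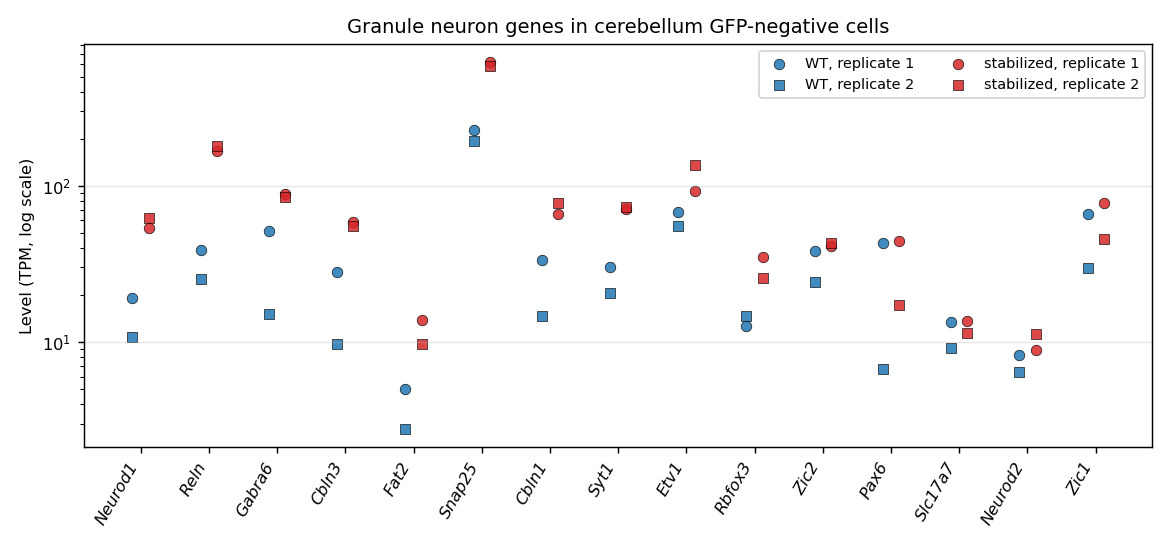
TPM (log scale) of the 15 genes of the granule neuron list in the 2 WT (blue) and 2 stabilized (red) GFP-negative libraries, ordered by log2 fold change. For 12 of the 15 both red points lie above both blue points, and Zic1, Pax6 and Slc17a7 overlap.

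Of 17 synaptic and excitability genes 3 were called higher, beside 0.133% of all genes, and none lower. In 8 of the 17 both stabilized libraries were above both WT libraries, beside 6.11% of all genes, and the median log2 fold change was 0.88. Scn2a, an axonal sodium channel, was at 25.2 and 17.7 TPM in WT and 54.6 and 74.4 TPM in stabilized cells (log2 fold change 2.58 ± 0.46, adjusted p = 0.023). Camk2b, a calcium-dependent kinase of the synapse, went from 25.5 and 13.2 to 52.0 and 58.7 TPM (2.41 ± 0.43, adjusted p = 0.024), and Kcnc1, the fast Kv3 potassium channel, from 12.4 and 12.2 to 34.6 and 28.0 TPM (1.87 ± 0.34, adjusted p = 0.024). The rise was not shared by all synaptic genes: Vamp2, the vesicle SNARE partner of Snap25, was at 119 and 94.8 TPM in WT and 74.1 and 35.2 TPM in stabilized cells, and the AMPA receptor gene Gria4 at 402 and 129 against 159 and 54.7 TPM. Neither was called.

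Other neuronal genes among the largest rises were Diras2, a small GTPase (14.6 and 9.29 TPM against 36.0 and 35.04 TPM), Syt4, a vesicle protein of the synaptotagmin family (11.5 and 11.5 against 39.2 and 42.3 TPM), Cadps2, which primes dense-core vesicles in granule neurons (27.9 and 11.0 against 59.1 and 110 TPM), and Kcnd2, the A-type potassium channel of granule cells (7.15 and 5.13 against 17.5 and 14.9 TPM). Their log2 fold changes were 2.14, 2.37, 2.24 and 1.98 (edgeR adjusted p = 0.014, 0.019, 0.012 and 0.048). For each of them, both stabilized libraries were above both WT libraries. Fgf1, a growth factor of neurons, was called (log2 fold change 2.66, adjusted p = 0.029) while its TPM moved less, from 10.6 and 5.10 to 13.4 and 12.6. With the offset for gene length Cadps2 stayed past the threshold, and the calls of Snap25, Syt1, Etv1, Scn2a, Camk2b, Kcnc1, Diras2, Syt4, Kcnd2 and Fgf1 did not.

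Other neurons did not share this direction. Of 10 Purkinje cell markers 1 was called lower, beside 0.627% of all genes, and none higher. It was Ppp1r17, a phosphatase inhibitor of Purkinje cells (2.20 and 3.41 TPM against 0.196 and 0.0216 TPM, log2 fold change −4.12 ± 0.77, edgeR adjusted p = 0.031). In 3 of the 10 both stabilized libraries were below both WT libraries, beside 28.6% of all genes. The list had a median of −1.26 (−0.68 with the offset for gene length, under which Ppp1r17 was not called). Pvalb, a calcium buffer of Purkinje cells and interneurons, was at 44.4 and 155 against 47.5 and 10.8 TPM. All 8 inhibitory interneuron, Golgi and unipolar brush cell genes tested had log2 fold changes below 0 with a median of −1.43, but none was called, and Gad1, which makes GABA, overlapped at 37.0 and 95.9 against 64.8 and 9.30 TPM. The difference between the granule and the other neuronal lists was not tested.

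Myelin genes split. Bcas1, a gene of myelinating oligodendrocytes (chr2:170346991-170427845, minus strand), was at 13.1 and 18.6 TPM in WT and at 203 and 201 TPM in stabilized cells, the largest log2 fold change among the named rises (4.22 ± 0.70, edgeR adjusted p = 0.019). Mbp, myelin basic protein, was at 209 and 379 TPM in WT and at 1623 and 1386 TPM in stabilized cells (2.74 ± 0.56, adjusted p = 0.046). Plekhb1, a membrane-binding protein, was at 91.5 and 81.1 against 369 and 436 TPM (2.74 ± 0.40, adjusted p = 0.0077). In each of the 3, both stabilized libraries were far above both WT libraries and close to each other.

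The opposite order held for most of the other oligodendrocyte markers. Mog, a glycoprotein of the outer myelin surface, was at 45.4 and 144 TPM in WT and 21.8 and 23.8 TPM in stabilized cells (log2 fold change −1.48 ± 0.84, adjusted p = 0.54). Of 13 oligodendrocyte markers, a list without Bcas1 and Plekhb1, 1 was called higher and none lower, beside 0.133% and 0.627% of all genes. In 2 (Mbp and Mobp) both stabilized libraries were above WT, beside 6.11% of all genes. In 8, among them Mag, Cnp, Cldn11, Opalin, Sox10 and Olig1, both were below, beside 28.6% of all genes. Their median log2 fold change was −0.98. Mobp, a second basic protein of myelin, was at 60.2 and 162 against 409 and 398 TPM without being called (2.38 ± 1.16, adjusted p = 0.49). Of 8 markers of the oligodendrocyte progenitor none was called. In 3 of the 8 both stabilized libraries were below both WT libraries, beside 28.6% of all genes, and in none were both above, beside 6.11%. The other 5 overlapped, among them Pdgfra, the progenitor's growth factor receptor, at 3.52 and 4.84 against 21.3 and 2.05 TPM. With the offset for gene length the calls of Bcas1 and Mbp were lost and that of Plekhb1 was kept.

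**Figure D4:**
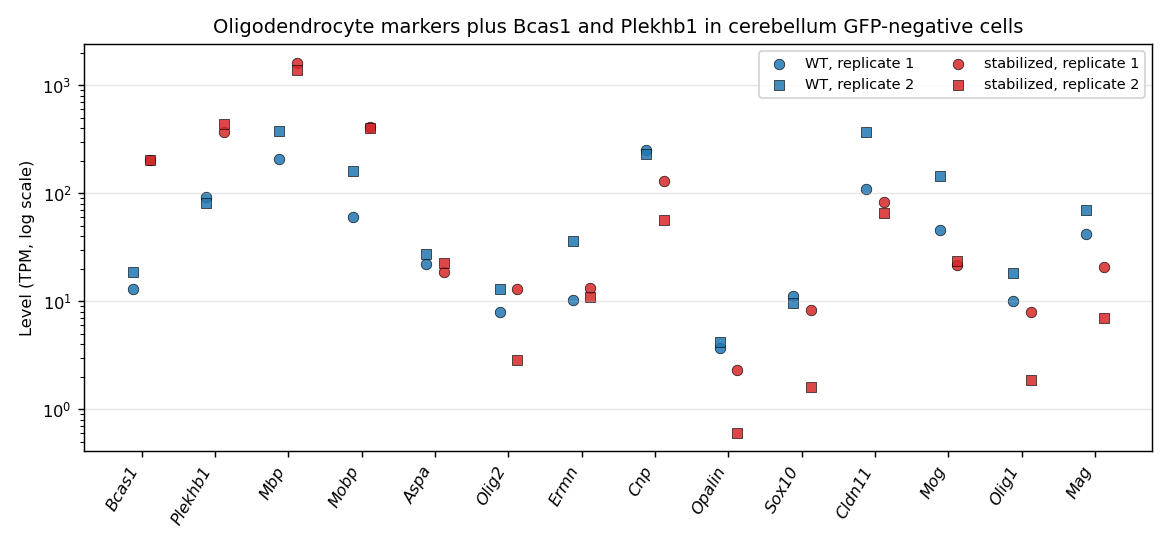
TPM (log scale) of 12 oligodendrocyte markers and of Bcas1 and Plekhb1 in the 2 WT (blue) and 2 stabilized (red) libraries, ordered by log2 fold change. Bcas1, Plekhb1, Mbp and Mobp lie higher in both stabilized libraries, and Mog, Mag, Cldn11 and Cnp lie lower in both.

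Immediate early genes, which neurons, glia and other cells transcribe within minutes of a stimulus or of tissue dissociation, were the list with the most genes called lower. Of 23 immediate early and stress genes 8 fell (Ier2, Npas4, Egr3, Egr2, Hspa1a, Atf3, Fosb and Egr1), beside 0.627% of all genes, and none rose. In 19 of 23 both stabilized libraries were below both WT libraries, beside 28.6% of all genes. The median log2 fold change was −2.24, and lay between −2.10 and −2.24 over the scalings and fits tried. Fosb, an AP-1 subunit (chr7:19302696-19310051, minus strand), was at 18.7 and 5.50 TPM in WT and 0.769 and 0.363 TPM in stabilized cells (log2 fold change −4.04 ± 0.43, edgeR adjusted p = 0.0014). Egr1, a zinc finger factor induced by growth factors and synaptic activity, was at 34.4 and 10.4 against 4.95 and 1.99 TPM (−2.22 ± 0.45, adjusted p = 0.044). Fos, the best known of the group, was at 158 and 41.3 against 3.45 and 13.5 TPM but missed the threshold (−2.57 ± 0.65, adjusted p = 0.12). The calls of Egr1 and Atf3 were lost with RLE normalization and with the offset for gene length, and that of Npas4 with RLE normalization and with thinned counts.

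WT replicate 1 was the higher WT library for most of these genes. Atf3, a stress-induced repressor, was at 17.5 and 3.36 TPM in WT and 0.333 and 2.39 TPM in stabilized cells (adjusted p = 0.049). Ier2, Egr3 and Npas4 had 0 counts in both stabilized libraries, and against a floor of 3 counts over the group they were at least 60.1-fold, 38.6-fold and 48.8-fold lower, from 4.12 and 1.82, 1.01 and 0.0766, and 1.37 and 0.113 TPM in WT. Hsp90aa1, a heat shock chaperone, overlapped at 386 and 623 against 537 and 424 TPM. The same list was read in the other sorted populations. In cerebellum GFP-positive cells all 23 genes had log2 fold changes below 0 (median −2.74) and none was called by edgeR, beside 0.107% of 16822 genes, and WT GFP-positive replicate 1 held by far the highest levels, with Fos at 309 TPM against 12.2 TPM in replicate 2. In GFP-negative cells of the anterior and posterior pituitary 21 and 20 of the 23 were below 0, with medians of −1.005 and −0.75. Over all 19612 genes, 8645 and 8161 were below 0 there. In each lobe 1 gene of the list, Hspa1b, was called, beside 0.0408% and 0.133% of all genes.

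**Figure D5:**
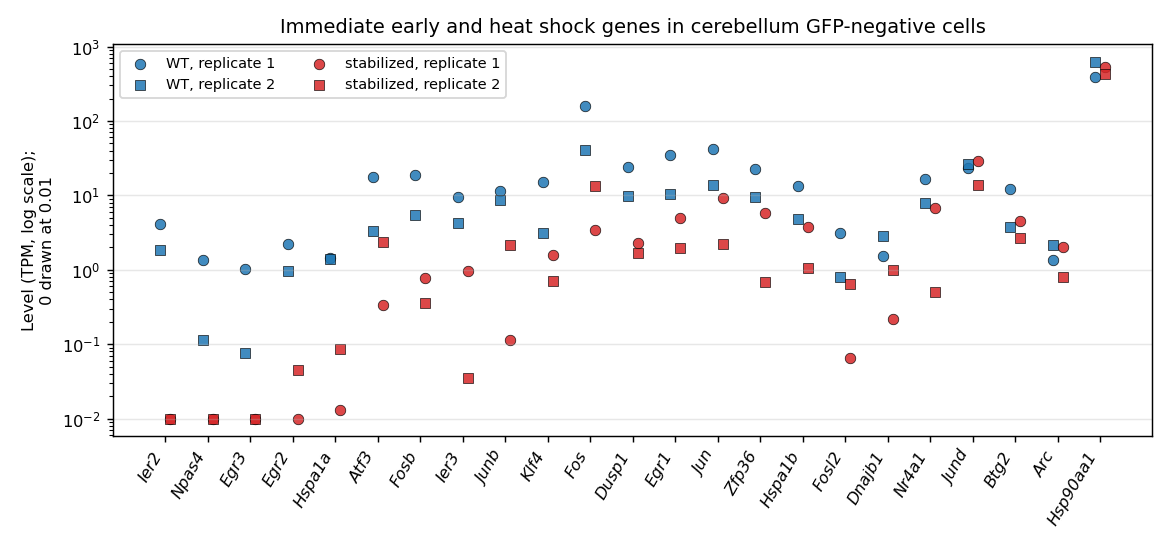
TPM (log scale, 0 drawn at 0.01) of 23 immediate early and stress genes in the 2 WT (blue) and 2 stabilized (red) GFP-negative libraries, ordered by log2 fold change. In 19 of 23 both red points lie below both blue points, and Ier2, Npas4 and Egr3 are at 0 in both stabilized libraries.

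Because 8 of these genes fell, their promoters were searched for the elements that serve them, the cyclic AMP response element (CRE, TGACGTCA) and the CArG box of serum response factor, on both strands of the window from 250 bases before to 50 after the start site (RefSeq, GRCm38.p6). Of the 23 genes 18 had a window in the table. The CRE was found in 2 of 18 (11.1%) beside 2.03% of 27025 genes, and the CArG box in 2 of 18 (11.1%) beside 1.81%. The matches are shown with the motif in capitals, 5′ to 3′ on the strand of the gene, for Egr2, which was called, and for Zfp36, Dusp1 and Btg2, which were not. Egr2 lies at chr10:67537787-67537816 (plus), Zfp36 at chr7:28379267-28379296 (minus), Dusp1 at chr17:26508598-26508625 (minus) and Btg2 at chr1:134079304-134079331 (minus).
Egr2: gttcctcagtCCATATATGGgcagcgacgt
Zfp36: ccaggccgccCCATAAAAGGagaaagctcc
Dusp1: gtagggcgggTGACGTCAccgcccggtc
Btg2: ttcccaataaTGACGTCAgtgagcgatg
The Egr2 sequence is 1 of 2 matches in its windows. A match is a description of letters in a window, and no other gene of the list with a window held either motif. Sequence outside the windows, and the genes of the list without a window, were not searched, so the lack of a match does not mean that a gene lacks these elements.

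Several of the largest falls were genes of the meninges and choroid plexus. Col3a1, a fibrillar collagen (chr1:45311538-45349706), was at 19.7 and 53.2 TPM in WT and 0.491 and 2.41 TPM in stabilized cells (log2 fold change −5.00 ± 0.61, edgeR adjusted p = 0.0030). Igfbp2, an IGF-binding protein made by leptomeninges and choroid plexus, was at 8.98 and 57.9 TPM in WT, with a single count in the 2 stabilized libraries together, a ratio of 1522 (95% counting interval 273 to 60133). Aldh1a2, the retinoic acid-synthesizing enzyme of the meninges, was at 5.78 and 9.15 against 0.0281 and 0 TPM, with 2 counts in the stabilized libraries together and a ratio of 359 (99.3 to 2969). These intervals cover counting error only, and the calls of Col3a1 and Aldh1a2 were lost with the offset for gene length.

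A list of 20 leptomeningeal fibroblast markers was assembled after these values had been seen, and is given without a test. Of the 20, 5 were called lower (Col1a2, Col3a1, Igfbp2, Aldh1a2 and Fbln2), none was called higher, and 17 had both stabilized libraries below both WT libraries. Over all genes 0.627% were called lower and 28.6% lay below, but since Col3a1, Igfbp2 and Aldh1a2 had led to the list, nothing is read from these counts. Their summed level was 1322 and 1643 TPM in WT and 343 and 265 TPM in stabilized cells, most of it Ptgds, prostaglandin D synthase, at 1114 and 1271 against 240 and 220 TPM. Choroid plexus transcripts were high in a single library. Ttr, transthyretin, was at 0.0397 TPM in WT replicate 1, 3514 TPM in WT replicate 2, 0 in stabilized replicate 1 and 11.9 TPM in stabilized replicate 2. Prlr, the prolactin receptor, of the same epithelium, was called lower from 0.489 and 6.53 TPM to 0 counts (at least 431-fold, adjusted p = 0.017), with 85 counts in WT replicate 1 and 2731 in WT replicate 2. Of 9 ependymal and choroid genes tested, 1 was called lower, beside 0.627% of all genes. All 9 were below 0, beside 11369 of all 19612 genes. The part of these tissues in the other falls was not tested.

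Blood also differed between libraries. Hbb-bs, a beta globin gene, was at 12927 and 159 TPM in WT and 5218 and 9251 TPM in stabilized cells, so that WT replicate 2 stood apart, and none of 6 red cell genes tested was called.

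Among glia, no astrocyte or Bergmann glia marker was called, although 13 of 15 had log2 fold changes below 0 (median −0.84). Slc1a3, the glutamate transporter of Bergmann glia, was at 3686 and 764 TPM in WT and 1142 and 272 TPM in stabilized cells. Gja1, the astrocyte connexin, was at 1673 and 588 against 677 and 235 TPM (adjusted p = 0.19). In both groups replicate 1 was the higher and the groups overlapped. In Aqp4, the water channel of astrocyte endfeet on the vessel wall, they did not, at 253 and 111 TPM against 98.7 and 27.4 TPM (log2 fold change −1.09 ± 0.48, edgeR adjusted p = 0.44), nor in Hopx, a nuclear cofactor of Bergmann glia (888 and 197 against 165 and 33.8 TPM), or Gdf10, a growth factor of the same cells (184 and 50.5 against 40.5 and 13.5 TPM). These were the only 3 of the 15 markers with both stabilized libraries below both WT libraries, beside 28.6% of all genes. Gfap, the intermediate filament of astrocytes, overlapped at 8.78 and 8.58 against 11.8 and 6.497 TPM. Of 12 reactive glia genes none was called, 9 had log2 fold changes below 0 with a median of −1.43, and 5 had both stabilized libraries below both WT libraries, beside 28.6% of all genes. Vim, another intermediate filament of glia, was at 606 and 130 TPM in WT and 194 and 91.3 TPM in stabilized cells (adjusted p = 0.45).

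Of 17 microglia markers none was called. Their median log2 fold change was −0.66 beside −0.26 for all genes, 16 were below 0, and in 12 both stabilized libraries were below both WT libraries, beside 28.6% of all genes. Ctss, a lysosomal protease, was at 81.5 and 108 TPM in WT and 38.6 and 34.3 TPM in stabilized cells (log2 fold change −0.66 ± 0.68, adjusted p = 0.74). P2ry12, the receptor that guides microglial processes, was at 24.2 and 45.4 against 20.5 and 6.49 TPM. Neither the 14 genes of activated microglia nor the 12 of border macrophages and leukocytes held a called gene, with medians of −1.46 and −2.04. Both stabilized libraries were below both WT libraries in 7 of the 14 and 8 of the 12, beside 28.6% of all genes. Pf4, a chemokine of border macrophages, was at 12.6 and 4.52 TPM in WT and had 0 counts in both stabilized libraries. Of 14 interferon-responsive genes none was called (median 0.50). Of 10 MHC class I and antigen-processing genes 1 was called lower, beside 0.627% of all genes. In 5 of the 10 both stabilized libraries were below both WT libraries, beside 28.6% of all genes. The called gene was Tapbp, the tapasin chaperone, at 8.38 and 6.70 against 4.19 and 0.0959 TPM (−4.17 ± 0.48, edgeR adjusted p = 0.0021). Its 2 stabilized replicates themselves were far apart, and the call was lost with the offset for gene length.

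The signals that parenchyma sends to vessels were examined as lists. Of 17 Wnt ligands, Norrin and secreted modulators, 15 were tested and none was called. Their median log2 fold change was −1.84 beside −0.26 for all genes, and −0.65 beside −0.09 in the fit of the 4 libraries alone. In 5 of the 15 both stabilized libraries were below both WT libraries, beside 28.6% of all genes. Wif1, a secreted inhibitor that binds Wnt ligands, was at 17.4 and 13.3 TPM in WT and 2.27 and 0.976 TPM in stabilized cells, which do not overlap (log2 fold change −2.95 ± 1.72, adjusted p = 0.55). Dkk3, a secreted Dickkopf family member, was at 39.3 and 11.9 against 6.61 and 2.80 TPM (−1.84 ± 0.52, adjusted p = 0.16). The ligand genes themselves were low: Ndp, which encodes Norrin, was at 15.9 and 4.41 against 3.85 and 2.58 TPM, Wnt7b at 5.44 and 1.10 against 3.41 and 0.156 TPM, and Wnt7a at 1.85 and 3.74 against 1.06 and 30.1 TPM, with the last value from a single library.

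Of 17 secreted factors that act on vessels 1, Slit2, was called lower, beside 0.627% of all genes. In 8 of the 17 both stabilized libraries were below both WT libraries, beside 28.6% of all genes. Slit2, a guidance ligand of Robo receptors, was at 13.4 and 15.7 TPM in WT and 3.91 and 0.101 TPM in stabilized cells (log2 fold change −4.16 ± 0.65, adjusted p = 0.013), a call that was lost with the offset for gene length. Vegfa, the main angiogenic growth factor, was at 51.6 and 21.7 against 18.5 and 11.0 TPM (−1.05 ± 0.49, adjusted p = 0.46) and Angpt2 overlapped at 15.8 and 4.11 against 22.3 and 10.6 TPM. None of 11 hypoxia-responsive genes was called, the nearest being the glycolytic enzyme gene Pgk1 at 83.4 and 72.1 against 22.6 and 7.16 TPM (−1.84 ± 0.41, adjusted p = 0.063). Pericyte and smooth muscle genes were mixed. Their summed level was 110 to 372 TPM in the GFP-negative and 588 to 1158 TPM in the GFP-positive libraries. TPM is a share of each library and does not say which gate held more RNA. Rgs5 was at 60.7 and 30.1 TPM in WT GFP-negative and 548 and 488 TPM in WT GFP-positive cells. The smooth muscle gene Acta2 went the other way, at 41.1 and 19.0 against 26.1 and 10.1 TPM. Of 13 none was called, and Kcnj8 and Abcc9, the subunits of the pericyte ATP-sensitive potassium channel, were higher in both stabilized libraries (2.13 and 0.752 against 14.4 and 6.64 TPM, and 2.27 and 0.872 against 7.40 and 2.74 TPM), while Acta2, smooth muscle actin, was lower in both (41.1 and 19.0 against 8.23 and 2.61 TPM).

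Of 17 cholesterol synthesis genes only Cyp51, lanosterol demethylase, was called lower, beside 0.627% of all genes (log2 fold change −1.73 ± 0.34, edgeR adjusted p = 0.038). Its TPM overlapped at 32.7 and 28.4 against 33.5 and 5.80. In 12 of the 17 both stabilized libraries lay below both WT libraries, among them Hmgcs1, which makes the first committed intermediate (67.4 and 98.6 against 33.6 and 23.7 TPM), beside 28.6% of all genes, and the median log2 fold change was −1.10 beside −0.26 for all genes. The call of Cyp51 was lost with the offset for gene length. Of 12 immature neuron and granule progenitor genes tested Sox11 and Mycn, transcription factors of neuronal precursors, were called lower, beside 0.627% of all genes, from 0.367 and 0.443 TPM and from 3.22 and 1.38 TPM to 0 counts in both stabilized libraries (at least 67.0-fold and 40.4-fold). The call of Mycn was lost with the offset for gene length, with thinned counts and with a replicate block.

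The remaining large falls concerned single genes of varied function. Arhgap18, a GTPase-activating protein, was at 15.8 and 6.76 TPM in WT and had a single count in the stabilized libraries together (a ratio of 599, 95% counting interval 107 to 23683, adjusted p = 0.0014). Hacd1, an enzyme of fatty acid elongation, had 1 count against 34.2 and 23.4 TPM (a ratio of 615, 110 to 24300) and Gng10, a G protein gamma subunit, 2 counts against 23.7 and 6.87 TPM (a ratio of 226, 62.5 to 1872). Nme5, a gene of ciliated cells, was at 10.5 and 6.79 TPM against 0 counts (at least 70.9-fold). Cdkn1c, a cyclin-dependent kinase inhibitor, was at 7.80 and 39.0 against 0.254 and 0.326 TPM, Msl3l2 at 14.4 and 6.55 against 0.0387 and 0.217 TPM, and the RNase gene Rnaset2a at 81.4 and 9.30 against 0 and 0.618 TPM. The calls of Nme5, Cdkn1c, Msl3l2 and Rnaset2a were lost with the offset for gene length.

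A pair of ribosomal protein genes was among the named falls, and the rest of that family was not examined as a list. Rpl24, of the large ribosomal subunit (chr16:55966275-55971435), was at 104 and 70.6 TPM in WT and at 2.54 and 2.50 TPM in stabilized cells (log2 fold change −4.63 ± 0.48, edgeR adjusted p = 0.0014), and Rpl7a at 19.0 and 19.0 against 0 and 0.232 TPM (−7.20 ± 1.002, adjusted p = 0.0070). Genes of this family have near-identical copies elsewhere in the genome, so both values are given as uncertain, and how reads were divided among copies was not tested. Rpl24 was also at 0.315 TPM in stabilized GFP-positive replicate 1 but at 169 TPM in replicate 2. The mitochondrial gene mt-Co3 was similarly listed at 0 in both stabilized libraries and at 624 and 2022 TPM in WT, without a call (adjusted p = 0.13). In GFP-positive cells it was likewise listed at 0 in both stabilized libraries, against 297 and 116 TPM in WT.

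The same contrast in ECs was fitted with the 8 sorted cerebellum libraries. There 18 of 16822 genes (0.107%) were called, all lower in stabilized cells. In the same fit the parenchyma itself had 7 genes called, all lower, of which 1 was among the 149 of the 12-library fit, so the calls of the 2 cell populations are not compared. For the 26 rises the median log2 fold change in ECs was 0.52, with 14 above 0, and for the 123 falls it was −0.96, with 91 below 0. Over 16484 genes the median in ECs was −0.06, with 6861 above 0 and 8651 below 0. The difference between the responses passed the test for 3 genes of 16822 (0.0178%). For Kcnc1 the log2 responses differed by 9.97, with −8.04 in ECs, where WT levels were 8.34 and 0.554 TPM and stabilized levels 0 and 0.00857 TPM (edgeR interaction, adjusted p = 0.040). For Arhgap18, at 35.2 to 64.4 TPM in all 4 GFP-positive libraries, the log2 response was −0.23 in ECs and the difference −8.77 (adjusted p = 0.041). The third was Sh3gl2, a synaptic endophilin, at 32.1 and 27.4 against 47.5 and 31.8 TPM in the parenchyma. With the offset for gene length, or without stabilized replicate 2, no gene passed.

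GFP-negative cells of the pituitary lobes, from mice of the same genotypes, gave fewer calls. In the anterior lobe 8 of 19612 genes (0.0408%) and in the posterior lobe 26 (0.133%) were called, and none of the 149 cerebellum genes was among them in the same direction. The response differed between cerebellum and anterior pituitary for 49 genes (0.25%), 4 higher and 45 lower in cerebellum, and between cerebellum and posterior pituitary for 80 genes (0.408%), 15 higher and 65 lower. Of the 149 called cerebellum genes 34 and 43 had such a difference. Granule neuron markers had median log2 fold changes of 0.07 and 0 in the anterior and posterior pituitary, tissues that do not contain granule neurons, beside 1.90 in the cerebellum.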

How the data were processed

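RNA was sequenced from FACS-sorted cells after amplification. The authors deposited Salmon 0.10.2 output per transcript, made up of estimated counts, which are not normalized, TPM, scaled within each library, and effective lengths. The number of transcripts in the tables was 130740, of which 130338 matched GENCODE M21 (GRCm38) and were summed to genes, and 402 did not match and were left out. Gene sums, rounded to whole numbers, went into edgeR 4.0.16 under R 4.3.3 (TMM, filterByExpr, quasi-likelihood, Benjamini-Hochberg), in a fit of the 12 GFP-negative libraries. Interactions with GFP-positive cells came from the 8 cerebellum libraries. Calls needed at least a 2-fold change with an adjusted p below 0.05. A standard error is the log2 fold change divided by the root of the F statistic. The study used EBSeq, which was not run here. The procedure was tested on simulated counts. Floors are 3 counts over a group, and counting intervals are exact at 95%.

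TMM left a median log2 fold change of −0.26 over all genes, DESeq2 size factors in edgeR −0.14, so that changes are to be read relative to that shift. Named genes were, by rule, Ctnnb1, Wnt, ligand and EC markers, called list members, the 3 members of each list with the highest level, and the 12 largest rises and falls at 5 TPM or more in both replicates of the higher group with groups that did not overlap, leaving predicted genes and pseudogenes out (14 of the called genes). Genes named beyond this rule were chosen after their values were seen. The members and gene lists were chosen with earlier results of these data known.

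Alternatives were RLE normalization, DESeq2 1.42.0, no filter, a replicate block, an offset for effective length, smaller fits, a TPM minimum, each replicate left out, and, added after seeing the data, thinned counts and genes with a count in all 4 libraries. TPM differences were also taken with pseudocounts of 1 and 0.1. Some items of the lists enter the counts but are not reported here by name.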

Additional observations from a re-analysis of the deposited data

Results flagged for a closer look

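The results below were singled out because the response to stabilization differed between cerebellum GFP-negative cells and another cell population, by edgeR's interaction test (adjusted p under 0.05, at least 2-fold). Each value is the log2 response in cerebellum GFP-negative cells minus that in the other population, and a negative value means a lower response in cerebellum. No cause was tested.

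Against GFP-positive ECs of the cerebellum the difference was 9.97 for Kcnc1 and −8.77 for Arhgap18 (adjusted p = 0.040 and 0.041).

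Against GFP-negative cells of the anterior pituitary it was −9.54 for Arhgap18, −5.52 for Col3a1, −3.49 for Fosb, −10.60 for Igfbp2, −5.92 for Ppp1r17, −4.75 for Rpl24, −7.02 for Rpl7a, −10.27 for Sox11 and −4.20 for Tapbp. For these 9 genes the anterior pituitary response itself lay between −0.55 for Fosb and 1.81 for Ppp1r17.

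Against GFP-negative cells of the posterior pituitary 4 differences were above 0, at 2.44 for Cadps2, 2.56 for Diras2, 3.20 for Kcnc1 and 2.90 for Plekhb1. The others were below 0, at −8.63 for Arhgap18, −5.43 for Col3a1, −8.97 for Gng10, −10.11 for Ier2, −10.29 for Igfbp2, −7.27 for Rpl24, −8.38 for Rpl7a, −9.75 for Sox11 and −4.38 for Tapbp. For these 13 genes the posterior pituitary response itself lay between −1.33 for Kcnc1 and 2.64 for Rpl24. Fitted differences of genes with 0 or few counts in stabilized cerebellum (Arhgap18, Gng10, Ier2, Igfbp2, Rpl7a and Sox11) depend on the prior count, as does that of Kcnc1 against ECs, where the stabilized libraries were at 0 and 0.00857 TPM.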

How the results depend on the processing

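For the 41 named genes called in cerebellum GFP-negative cells, 518 alternative values were computed. Of these 369 kept the call, 149 kept the direction without the call, and 0 reversed. The causes of the shifts below were not tested. DESeq2 called 330 higher and 924 lower genes in cerebellum GFP-negative cells, no filter 155 and 457, the offset for gene length 5 and 56, the fit of the 4 libraries 0 and 0, and the fit of the 8 libraries 0 and 7. A count in all 4 libraries left 33 lower genes and 5 TPM left 38. Leaving out 1 replicate gave 19 to 104 higher and 140 to 504 lower genes, with the highest counts without stabilized replicate 1 (104 and 504), 66 higher without WT replicate 2 and 225 lower without WT replicate 1.

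For the difference from GFP-positive cells, DESeq2 called 462 higher and 292 lower, no filter 433 and 195, the offset 0 and 0, and leaving out a replicate 0 to 40 and 0 to 54. The difference from anterior pituitary gave 175 and 737 with DESeq2, 89 and 429 without a filter, 1 and 12 with the offset, and 15 to 36 and 80 to 280 with a replicate left out. The difference from posterior pituitary gave 406 and 1149, 163 and 612, 2 and 27, and 29 to 66 and 111 to 387. In GFP-positive cells RLE called 1 higher gene, DESeq2 169 higher and 726 lower, and no filter 130 and 566. Mean residual EC RNA moved by less than 1 SD under the alternatives run, an SD that in stabilized libraries exceeds the mean, at 0.598% to 0.662% in WT and 0.326% to 0.627% in stabilized libraries.

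The replicate numbers pair no samples by label. Across 19612 genes, log2 differences of replicate 1 minus replicate 2 in WT and in stabilized cerebellum GFP-negative cells had a correlation of −0.0023. With a replicate block 31 genes were called higher and 128 lower in cerebellum GFP-negative cells. With the block the differences from GFP-positive cells numbered 14 higher and 3 lower, from anterior pituitary 7 and 51, from posterior pituitary 16 and 80, and the GFP-positive response 2 and 58. The depth of the stabilized libraries limits what can be said of low genes, since 71 of the 123 lower genes had at most 3 counts in both together.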

Other observations

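Clock and glucocorticoid-responsive genes were not described above. Of 18 tested none was called by edgeR, 15 had log2 fold changes below 0, and the median was −0.63 beside −0.26 for all genes. None of 12 cell cycle genes was called, with a median of −3.82. It was −2.06 with genes at 0 counts set to their bound and −0.88 in the fit of the 4 libraries alone. With the offset for gene length it was −4.64, with thinned counts −4.87, and in the fit of the 8 sorted cerebellum libraries −6.58.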
